A study of Macaca mulatta with 5 samples.

Results

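The strongest H3K4me2 islands of the rhesus macaque prefrontal cortex are described here: 309 autosomal regions in which the pooled reads stood at 10 times the input or more. Dimethylation of lysine 4 on histone H3 (H3K4me2) was profiled by ChIP-seq, the sequencing of DNA from immunoprecipitated chromatin, with 1 library each from animals aged 0.4, 9, 22 and 26 years. The control was input, sonicated chromatin DNA without immunoprecipitation, pooled from 7 animals of different ages that included the 4 profiled ones. The labels give no genotype, treatment or sex for any animal, and each immunoprecipitation started from around 200 mg of prefrontal cortex. The islands were chosen from the 59189 rows of the deposited island table, which holds regions of joined 200 bp windows called once on the pooled libraries. A row was kept if it lay on an autosome (58414 rows), was narrower than 10000 bp (56494 rows), held at least 5 input reads (54611 rows, called eligible islands below) and reached a fold of 10. The fold, called enrichment below, is the pooled count divided by the input count and by 2.753, the ratio of the pooled reads without repeats to the input reads. The 309 islands were 0.566% of the eligible ones.

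H3K4me2 is deposited by methyltransferase complexes of the MLL and SET1 family and removed by demethylases such as LSD1. It marks promoters and enhancers, where it typically flanks a stretch of DNA held open by transcription factors. In the adult cortex such regions differ between neurons and glia, so a level in whole tissue mixes both. In bulk tissue, fewer cells carrying the mark and less mark per cell cannot be told apart. Each age has 1 animal, so age and animal cannot be told apart either, and every interval below covers counting error only. Positions are given 1-based, so each start and end is 1 higher than in the deposited island table. The genome build of the deposited files is not given in the sources used here. Gene names and sequences were not used here, so the tissue was not checked against marker genes.

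The libraries held 8402719 to 10810296 autosomal reads and the input 13738020. Enrichment chose the islands, so its size is a description. It ran from 10.0 to 22.0 with a median of 11.1, and it was 12 or more in 90 islands, 15 or more in 18 and 20 or more in 2. The islands held 139 to 980 pooled reads each, with a median of 269, on 5 to 35 input reads, with a median of 8. The input counts are small: 121 of the 309 islands held 5 to 7 input reads and 11 held at least 20. The lower 95% bound of the enrichment, exact for the pooled and input counts, lay between 4.23 and 9.42. It was at least 5 in 264 islands and at least 10 in 0, so no single island was shown to lie above the threshold by its counts alone.

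**Figure D1:**
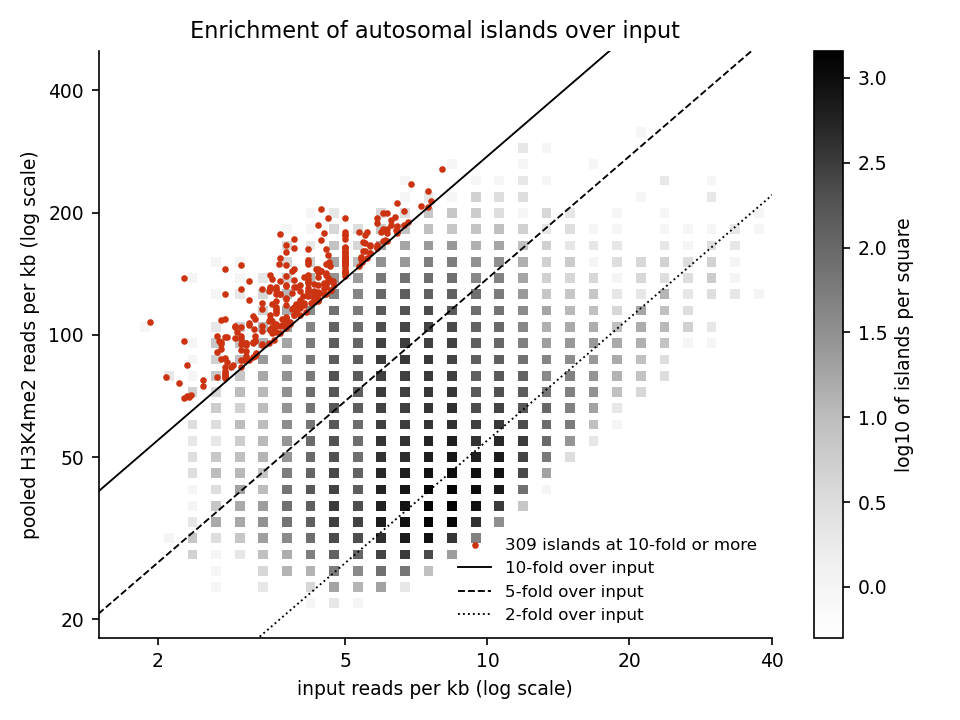
Pooled H3K4me2 reads per kb against input reads per kb for autosomal islands under 10000 bp with at least 5 input reads, both on log axes. Red points are the 309 islands at 10-fold or more, grey squares count all eligible islands, and lines mark 10-, 5- and 2-fold; the red points lie at 1.92 to 8.0 input reads per kb.

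The threshold cut through a continuous range. The 3 islands just inside it were chr16:26568401-26569600 and chr5:81722801-81725600, both at 10.009, and chr11:124713201-124716600 at 10.019. Just outside lay chr5:146750801-146753200 and chr17:1827001-1829000, both at 9.989, and chr7:100143201-100144600 at 9.963. Each of these 6 would change sides with 1 input read more or fewer. A further island, chr5:25609001-25619000, reached 12.03 with 1557 pooled and 47 input reads and was left out because it is exactly 10000 bp wide.

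The islands combined a high H3K4me2 density with a low input density. Pooled H3K4me2 reads had a median of 136.5 per kb, against 48.1 per kb over all eligible islands. Input reads had a median of 4.0 per kb in the 309 islands and 7.50 per kb over all eligible islands. In the 10 kb on each side, outside islands, the input was at 4.58 and 5.30 reads per kb. Both densities entered the rule, so the contrast is a description. Measured against that flanking input in place of the island's own, the median enrichment was 10.6, and 172 of the 309 islands (55.7%) still stood at 10 or more. Of the 6004 islands with an enrichment of 5 to 10, 1630 (27.2%) reached 10 on that scale.

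The highest enrichment belonged to chr16:16771201-16773400, a 2200 bp island with 49, 73, 99 and 117 reads at 0.4, 9, 22 and 26 years and 5 in the input. Its pooled enrichment of 22.0 had an interval of 9.33 to 68.3. Its count was higher at each older age, and its enrichment in the single libraries was 16.0, 21.3, 26.8 and 29.7. The next were chr9:22448001-22450600 with 44, 69, 84 and 93 reads and an enrichment of 20.3, and chr8:12006801-12008600 with 40, 56, 90 and 85 reads and 19.0. Both again had 5 input reads, so their bounds are wide (8.61 to 63.1 and 8.05 to 59.1). The island chr3:40306401-40309400 held 74, 117, 139 and 142 reads on 9 input reads, at 18.04, and chr20:202801-205000 held 62, 109, 136 and 119 on 8, at 17.7. In all 5 the infant library had the fewest reads, which is also the library with the lowest depth.

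The densest islands were others. The island chr3:33291801-33292800, only 1000 bp wide, held 50, 58, 100 and 91 reads in order of age, a sum of 299 per kb. It was followed by chr14:116820001-116821600 with 57, 93, 139 and 122 reads (257 per kb) and chr13:11553801-11555600 with 72, 92, 125 and 149 (243 per kb). The island chr2:78831401-78833800 held 96, 120, 168 and 193 reads (240 per kb). The last of the 5, chr15:100275801-100277200, held 43, 96, 75 and 115 reads (235 per kb), so its count at 22 years was below that at 9 years. None of the 5 densest islands is among the 5 with the highest enrichment, and their enrichment was 10.96 to 16.7.

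The 309 islands were of middling width. The median was 2200 bp (quartiles 1600 and 2800 bp), against 2600 bp over eligible islands, and the range ran from 800 bp at chr7:94412801-94413600 (21, 43, 52 and 41 reads) to 6600 bp at chr6:89811401-89818000 (131, 218, 304 and 303 reads). Widths over 4000 bp made up 2.91% of them and 23.4% of eligible islands, and widths of 1000 bp or less 3.24% and 7.57%. Every autosome held between 6 and 26 of them. Their share of the eligible islands was 0.345% on chromosome 20, 0.566% over all autosomes, 1.04% on chromosome 5 and 1.58% (16 of 1013) on chromosome 18.

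Enrichment was next measured in each library by itself. Summed over the 309 islands, the libraries held 14384 reads at 0.4 years, 21877 at 9 years, 28245 at 22 years and 31372 at 26 years, and the input 2891. These were 0.171% (95% Clopper-Pearson interval 0.168 to 0.174), 0.233% (0.230 to 0.236), 0.278% (0.275 to 0.281) and 0.290% (0.287 to 0.293) of autosomal reads, against 0.0210% (0.0203 to 0.0218) of the input. The summed enrichment was 8.13 (7.82 to 8.47) at 0.4 years, 11.1 (10.6 to 11.5) at 9 years, 13.2 (12.7 to 13.7) at 22 years and 13.8 (13.3 to 14.3) at 26 years. The infant library was lowest. The enrichment intervals of the 22 and 26 year libraries overlapped, but both include the counting error of the same input reads. The intervals of their shares of autosomal reads, which leave the input out, did not overlap. Scaled to reads in 215550 autosomal 10 kb bins that touch no island (background scaling), the summed enrichment was 9.99, 15.2, 19.0 and 19.6 in order of age.

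Per island, the median enrichment was 8.05 at 0.4 years (range 4.53 to 16.0), 10.7 at 9 years (0 to 21.3), 12.9 at 22 years (8.46 to 26.8) and 13.7 at 26 years (8.68 to 29.7). At 10-fold or more stood 50 islands in the infant library, 212 at 9 years, 291 at 22 years and 306 at 26 years. Of the 309, 41 reached 10 in all 4 libraries, 199 in each of the 3 older ones and 0 in none. The rule asks for a pooled enrichment of 10, so an island below 10 in every library could hardly be chosen. These counts describe the choice, and no share over other islands stands beside them.

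Every library entered the pooled count that chose the islands, so the choice was repeated on 3 libraries and the enrichment measured in the library left out. With the infant library left out, 556 islands were chosen and 9.0% of them reached 10 in it, with a median of 7.15. The 400 islands chosen without the 9 year library had a median of 10.2 in it, and 52.8% reached 10. The 292 chosen without the 22 year library had a median of 12.6 in it, with 88.4% at 10 or more. The 238 chosen without the 26 year library had a median of 13.7, with 96.2% at 10 or more. The order of the libraries was the same as among the 309, of which these 4 choices held 306, 292, 261 and 225. The choice was looser without the infant library (556 islands) than without the 26 year library (238). The 4 medians thus come from different islands, and their order depends in part on the choice. The input is shared by the choice and the measurement, so these values are not independent of it.

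**Figure D2:**
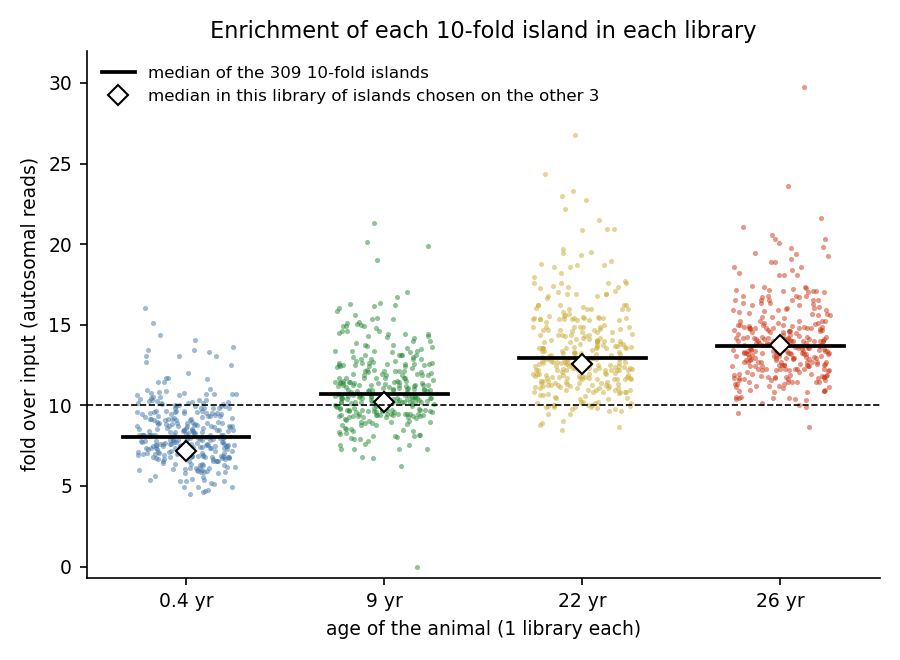
Enrichment over input of each of the 309 islands in each library, on autosomal reads (points, 1 per island; bars, medians of 8.05, 10.7, 12.9 and 13.7). Diamonds mark the median in that library of islands chosen on the other 3 libraries, and the dashed line marks 10-fold.

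The design allows 1 test across age, a straight line over the 4 libraries with 2 residual degrees of freedom. With TMM scaling, which centres the bulk of the islands, 0 of the 309 passed edgeR's quasi-likelihood test at an adjusted p of 0.05 in either direction (0% of all 58049 autosomal islands tested, in both directions). At an unadjusted p under 0.05 there were 57 rising and 0 falling, where 3.55% and 3.43% of all tested islands rose and fell. DESeq2 and limma-voom also passed 0, with 15 and 54 rising at an unadjusted p under 0.05 (0.587% and 3.12% of all islands). The fitted slope pointed upward in 286 of the 309 and downward in 23, against 49.7% and 50.3% of all islands. The median fitted difference between 0.4 and 26 years was 0.37 on the log2 scale in the 309 islands and -0.00 over all tested islands. All autosomal islands held a median of 123 pooled reads, against 269 in the 309, so shares over all islands here and below are not at like depth.

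The islands with the smallest p upward under TMM scaling all had an adjusted p of 0.691 (edgeR, over all autosomal islands tested). The first, chr4:27987801-27989000, held 20, 30, 56 and 81 reads in order of age, a fitted log2 difference of 1.33 between 0.4 and 26 years. In chr2:107349401-107351800 the counts were 26, 40, 81 and 88 (fitted 1.15), and in chr10:34486401-34488200 they were 26, 39, 70 and 92 (fitted 1.14). Counts in these 3 islands followed the order of age, and so did those of chr2:87102801-87104600 (32, 80, 101 and 128 reads). The last of the 5, chr17:30956201-30958400, held 36, 54, 118 and 104 reads, with its highest count at 22 years.

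Downward, the smallest p belonged to chr4:27589201-27590200, with 37, 34, 43 and 47 reads and a fitted log2 difference of -0.29 (edgeR adjusted p = 0.878). It was followed by chr3:30366601-30369000 (47, 74, 68 and 73 reads) and chr14:88577201-88579200 (31, 49, 50 and 45 reads), each with a fitted difference of -0.22. The counts of chr6:137870001-137873600 were 143, 151, 183 and 213, and those of chr15:107335001-107337200 were 50, 80, 71 and 86. In these 5 islands the raw count at 26 years was above that at 0.4 years, and a downward slope appears only after TMM scaling: with background scaling each of the 5 had an upward slope.

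The scaling set the number of calls. With background scaling, 29 of the 309 islands passed the edgeR test upward and 0 downward, where 1.18% of all tested islands passed upward and 0.00172% downward. All 309 slopes then pointed upward, against 87.4% of all islands, and the median fitted log2 difference between 0.4 and 26 years was 0.90 in the 309 and 0.53 over all islands. Among the 29, fitted differences ran from 1.27 to 1.93 with a median of 1.43. In 28 of the 29 each older library was above the infant one, and in 15 the level was higher at each step of age. The 29 were chosen by an upward slope on these same counts. Their fitted differences and the order of their libraries are thus a description. Leaving out 1 library changed the count to 1 without the infant (0.019% of all islands), 176 without the 9 year (15.1%), 0 without the 22 year (0.014%) and 9 without the 26 year library (0.513%). With counts corrected for the limit of 1 read per position it was 31 (1.44%), and with scaling to total autosomal reads 0 (0.031%). Of the 29 themselves, 1, 29, 0 and 8 remained called, and 0 remained in all 4 of these fits.

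The smallest p with background scaling came from an island that had no read in 1 library. The island chr1:126366401-126367800 held 31, 0, 57 and 81 reads by age and 5 input reads, and it is the only one of the 309 with a library at 0. Its background-scaled fit gave a log2 difference of 1.93 between 0.4 and 26 years (edgeR adjusted p = 0.00797), and with TMM scaling 1.45 (adjusted p = 0.695). Without the infant library it was the single call under TMM scaling (0.0121% of all islands), and without the 9, 22 or 26 year library there were 0 calls (0.019%, 0.007% and 0.00878%). The 9 year library had no read over chr1:126357962-126368667, a stretch of 10706 bp around the island that held 39, 63 and 97 reads in the other libraries by age, and the input held 12 there. Within 20 kb outside the stretch it held 67 reads, where the others held 136, 124 and 160 and the input 210. A count of 0 allows up to 3 reads. Against 3 reads, the level with TMM scaling was 13.8-fold higher at 0.4 years, 16.2-fold at 22 years and 21.8-fold at 26 years. These folds take the counts of the other libraries as exact. With counting error in both libraries, the lower 95% bound of the log2 ratio over 9 years was 3.67 at 22 years and 4.11 at 26 years. Over the autosomes, stretches empty in 1 library with at least 100 reads in the other 3 numbered 0 at 0.4 years, 5 at 9 years, 0 at 22 years and 3 at 26 years. For chr1:126366401-126367800 the background-scaled slope was 0.0754 log2 units per year with all libraries and 0.0455 without the 9 year library. With TMM scaling the 2 slopes were 0.0567 and 0.0219. Beyond these values the part of the empty library in the trend call was not tested.

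Ages were then compared in pairs, as log2 ratios of scaled counts with a pseudocount of 0.5 reads over islands where both libraries together held 50 reads or more. With 1 library per age there is no test, and a ratio counts as called here when it is over 2-fold. With TMM scaling the median ratio of the 309 islands was 0.39 at 26 over 0.4 years, 0.31 at 22 over 0.4 years and 0.18 at 9 over 0.4 years, the last over 306 islands. Over all autosomal islands the same medians were 0.06, 0.08 and 0.05, and over islands with an enrichment of 5 to 10 they were 0.33, 0.27 and 0.17, close to those of the 309. Above the infant level were 283 of the 309 islands at 26 years, 253 at 22 years and 220 of 306 at 9 years, where 55.8%, 57.2% and 55.4% of all islands had a ratio above 0. In the class at 5 to 10-fold the shares above 0 were 88.4%, 79.9% and 71.5%. Among the older libraries the medians were 0.12 at 22 over 9 years, 0.22 at 26 over 9 years and 0.08 at 26 over 22 years.

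Few of the islands differed over 2-fold under TMM scaling. Over 2-fold higher than in the infant were 10 islands at 26 years (background 1.21%), 11 at 22 years (1.46%) and 2 at 9 years (1.22%). Over 2-fold lower were 0 in each of these 3 pairs, where 1.14%, 1.14% and 0.919% of all islands were. Between 9 and 22 years 3 islands were over 2-fold higher (0.829%), between 9 and 26 years 4 (0.489%) and between 22 and 26 years 0 (0.811%), and 0 were over 2-fold lower in any of them (0.949%, 0.457% and 0.724%). Counts of 10 or 11 among 309 are shares of 3.24% and 3.56%. In the class at 5 to 10-fold, 2.15% were over 2-fold higher than the infant at 26 years, 2.45% at 22 years and 0.988% at 9 years. These comparisons share libraries, so their counts are not independent of each other.

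The largest ratios to the infant came from islands with low infant counts. The island chr1:10734001-10735400 held 18, 48, 82 and 44 reads in order of age, a log2 ratio of 1.51 (0.79 to 2.37) at 22 over 0.4 years. It also gave the lowest ratio of 26 over 22 years, -0.97 (-1.54 to -0.43), so the 22 year library stood above both the libraries next to it in age. The island chr11:110721001-110722200 held 17, 63, 61 and 69 reads, a ratio of 1.44 (0.68 to 2.34) at 9 over 0.4 years and 1.26 (0.51 to 2.15) at 26 over 0.4 years. Its 3 older counts lay close together and the infant count apart. The island chr8:97467601-97470800 also had its lowest count in the infant, with 36, 104, 132 and 142 reads, and a ratio of 1.10 (0.55 to 1.70) at 9 over 0.4 years. On the other side, chr2:49323801-49325000 held 28, 23, 50 and 64 reads, a ratio of -0.70 (-1.56 to 0.15) at 9 over 0.4 years and 1.15 (0.46 to 1.92) at 26 over 9 years. The island chr4:27589201-27590200, with 37, 34, 43 and 47 reads, had the lowest ratio of 26 over 0.4 years, -0.39 (-1.03 to 0.28), an interval that includes 0.

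With background scaling the 309 islands stood further above the infant. The median ratio was 0.97 at 26, 0.91 at 22 and 0.60 at 9 over 0.4 years, against 0.63, 0.68 and 0.46 over all autosomal islands. The class at 5 to 10-fold lay near the 309 on this scale too, at 0.90, 0.87 and 0.59. Over 2-fold higher were 140 islands at 26 years (background 18.1%), 123 at 22 years (20.8%) and 33 of 306 at 9 years (8.1%). In the class at 5 to 10-fold 37.0%, 34.7% and 10.4% were over 2-fold higher in these pairs. Over 2-fold lower were 0 in each of the 3 pairs (0.0432%, 0.0532% and 0.136%). The lowest of the 309 ratios of 26 over 0.4 years was 0.19, so all 309 were above 0. Of all islands 91.4% were above 0 in this pair, and of the class at 5 to 10-fold 99.7%. Between 22 and 26 years the median was 0.06, and 174 of 309 ratios were above 0 (45.2%).

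Subtraction of the input narrowed the distance to the other islands. After the island's input reads, scaled to background, were taken off its count, the median ratio of 26 over 0.4 years was 1.05 in the 309 islands and 0.93 over all autosomal islands. At 22 over 0.4 years the medians were 0.97 and 0.98, and at 9 over 0.4 years they were 0.66 and 0.69. Among islands with an enrichment of 5 to 10 they were 1.05, 1.01 and 0.69. The larger ratio of the 309 islands without subtraction thus went with their lower share of input reads. Whether that share accounts for it was not tested.

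**Figure D3:**
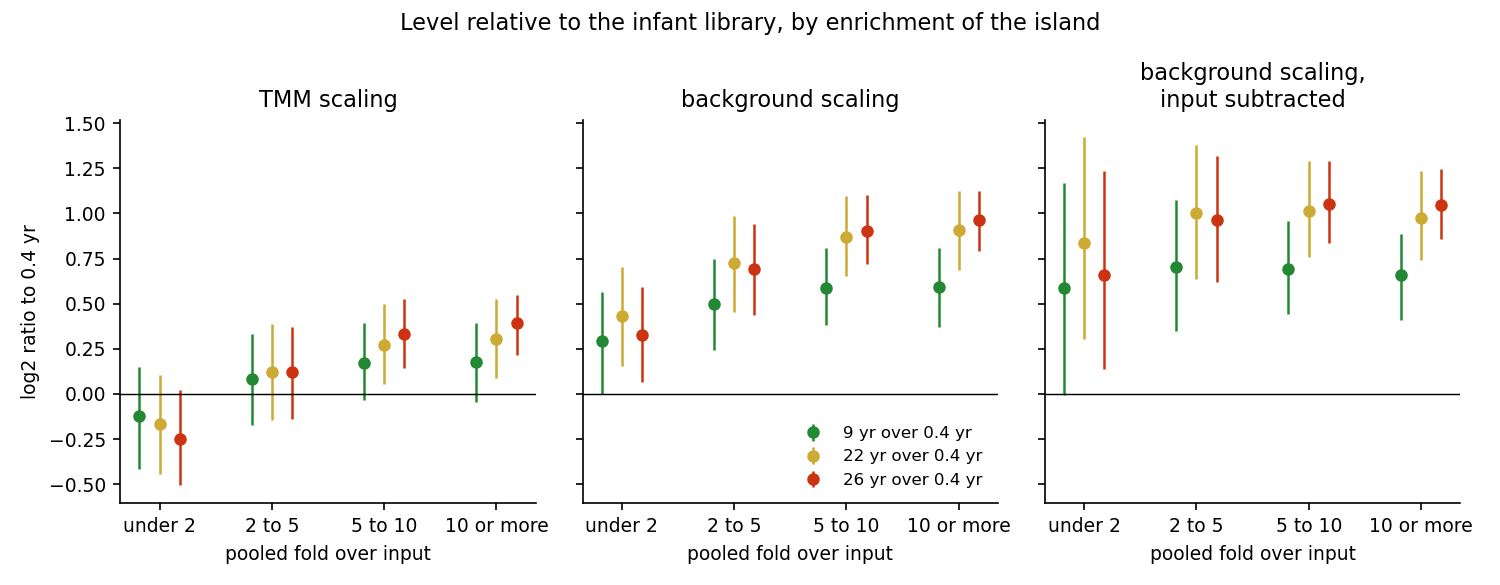
Median log2 ratio to the infant library (points; bars span the quartiles over islands) for autosomal islands grouped by enrichment, with TMM scaling, background scaling, and background scaling after input subtraction. In the group at 10-fold or more the ratio of 26 over 0.4 years is 0.39, 0.97 and 1.05 in the 3 panels.

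The rule could favour islands that happen to be high in the deeper, older libraries, so the pairs were repeated on islands chosen on the other 2 libraries only. The medians with TMM scaling were then 0.20 at 9 over 0.4 years (711 islands), 0.31 at 22 over 0.4 years (513 islands) and 0.40 at 26 over 0.4 years (464 islands). They differed by under 0.03 from those of the 309 islands. The candidate islands had themselves been called on the pool of all 4 libraries, and the input was the same. These sets also hold other islands than the 309, so the repeat does not remove the choice in full. Of these islands, 3 (0.42%), 18 (3.51%) and 15 (3.23%) were over 2-fold higher than in the infant. In the same order, 1.22%, 1.46% and 1.21% of all islands were, so the share at 9 years was below that of all islands. Over 2-fold lower were 0, 1 and 0, where 0.919%, 1.14% and 1.14% of all islands were.

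The order of the 4 libraries was counted in each island. With background scaling the infant was the lowest of the 4 in 295 of the 309 islands (68.1% of all autosomal islands) and the highest in 0 (4.64%). With TMM scaling it was the lowest in 194 (29.4%) and the highest in 13 (29.8%). The level was higher at each step of age in 128 islands with background scaling and 62 with TMM scaling, which are 41.4% and 20.1%, where 15.7% and 4.97% of all islands were. It was lower at each step in 0 of the 309 with either scaling, against 0.63% and 5.38% of all islands. The shares over all islands carry no minimum of reads. All autosomal islands held a median of 123 pooled reads, against 269 in the 309, and the order is less certain at lower counts. The order was not counted in the class at 5 to 10-fold.

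The difference from the infant was similar in size across subgroups of the 309, chosen by enrichment, input count or width and given without a test. Among the 144 islands at 10 to 11-fold the median log2 ratio of 26 over 0.4 years with background scaling was 0.98, among the 75 at 11 to 12-fold 0.99 and among the 90 at 12-fold or more 0.94. It was 0.97 in the 121 islands with 5 to 7 input reads, 0.94 in the 130 with 8 to 11 and 0.99 in the 58 with 12 or more. Islands of 1600 bp or narrower (80) and of 2800 bp or wider (86) stood at 1.00 and 0.97. Across these subgroups the ratio thus lay between 0.94 and 1.00.

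The distribution of reads within the islands was not used by the rule. Each island was divided into 5 segments of equal width, after each read start had been moved 75 bp in the direction of the read. Over the 309 islands the segments held 15.5, 22.2, 24.6, 22.8 and 15.0% of the pooled reads. The middle segment thus held 1.61 times the mean of the outermost ones, against 1.11 times in the input. By library this ratio was 1.40 at 0.4 years, 1.56 at 9 years, 1.74 at 22 years and 1.65 at 26 years, so reads in the infant library were spread more evenly. Among islands 1600 to 2800 bp wide it was 1.57 in the 194 islands at 10-fold or more, 1.71 in 2266 islands at 5 to 10-fold, 1.18 in 9989 at 2 to 5-fold and 0.984 in 8889 under 2-fold. The 10-fold islands were thus no more peaked than the class below them. Reads of opposite strands lay 135 to 148 bp apart in the 4 libraries, measured as the offset of highest overlap between strands, and 67 bp apart in the input.

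**Figure D4:**
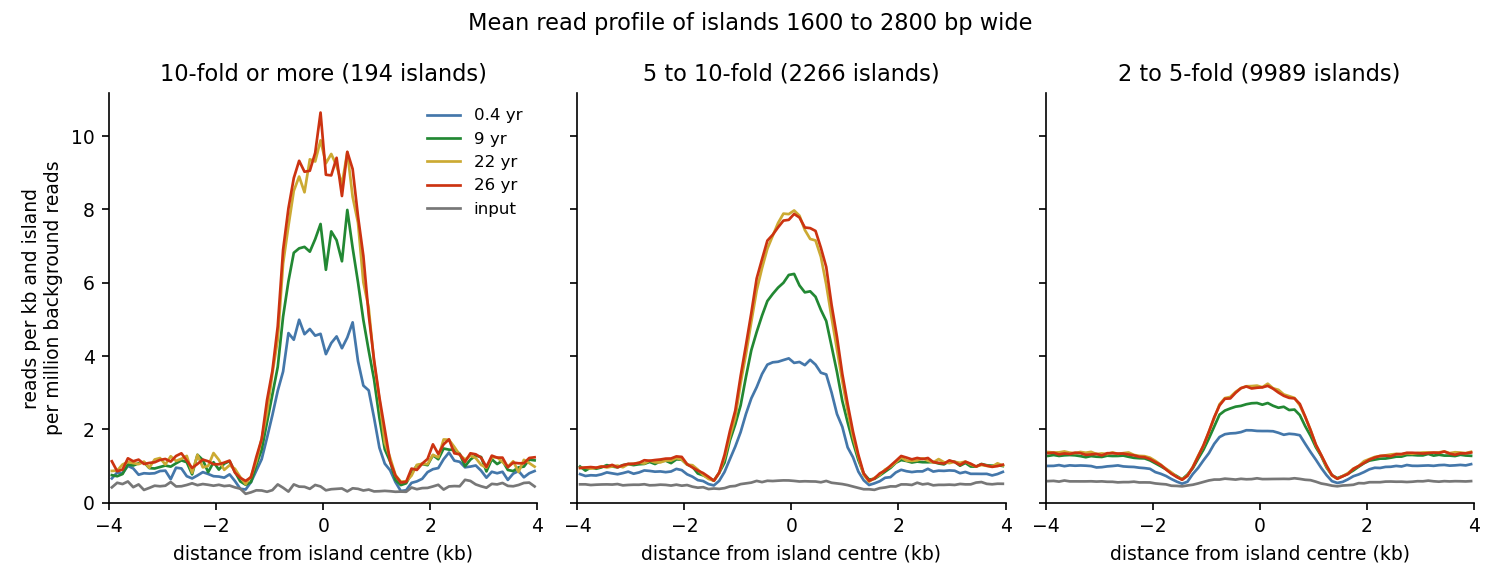
Mean reads per kb and island, scaled to background reads, against distance from the island centre in kb, for islands 1600 to 2800 bp wide in 3 classes of enrichment (lines, 1 per library). In the 194 islands at 10-fold or more the 22 and 26 year lines lie together above the 9 year line, and the infant line is the lowest of the 4 H3K4me2 lines; the drop at the edges follows from how islands are bounded.

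A minority of the islands had fewer reads in the middle than on either side. The middle segment held less than both its neighbours in 78 of the 309 islands (25.2%) in the pooled reads, against 21.5% of islands at 5 to 10-fold and 28.8% of those under 2-fold at widths of 1600 to 2800 bp, where the 10-fold islands were at 28.9%. In the input, the middle segment was below both neighbours in 63 of the 309 islands (20.4%). The same held in the input for 23.7% of the islands at 5 to 10-fold of those widths. In 35 islands this dip was present in all 4 libraries, in 57 in at least 3 and in 183 in none. Agreement between libraries was counted in the 309 islands only, so no share over other islands stands beside it. In those 35 the middle segment held 162, 317, 479 and 395 reads in order of age, where the segments beside it held 526, 810, 1082 and 1179 on the left and 517, 808, 1016 and 1111 on the right. Their input showed 76, 89, 66, 68 and 76 reads over the 5 segments. Choosing islands for the dip fixes its presence in these counts, so its depth here is a description.

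The deepest dip lay in chr1:16338001-16339800, an 1800 bp island with an enrichment of 10.1. Its segments held 83, 77, 4, 64 and 67 reads in the 4 libraries together and 3, 4, 0, 0 and 3 in the input. The middle segment held 1 read at 0.4 years, 0 at 9, 3 at 22 and 0 at 26 years, while each neighbouring segment held between 10 and 28. In the next, chr7:59171801-59174000, the segments held 141, 83, 10, 41 and 56 reads, and the middle held 2, 1, 5 and 2 reads in order of age. Here the reads lay mostly on the left. Both were chosen for their dip after values were seen. The islands with a dip in all 4 libraries had a median background-scaled log2 ratio of 26 over 0.4 years of 0.99, and those with no dip in any library 0.94.

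**Figure D5:**
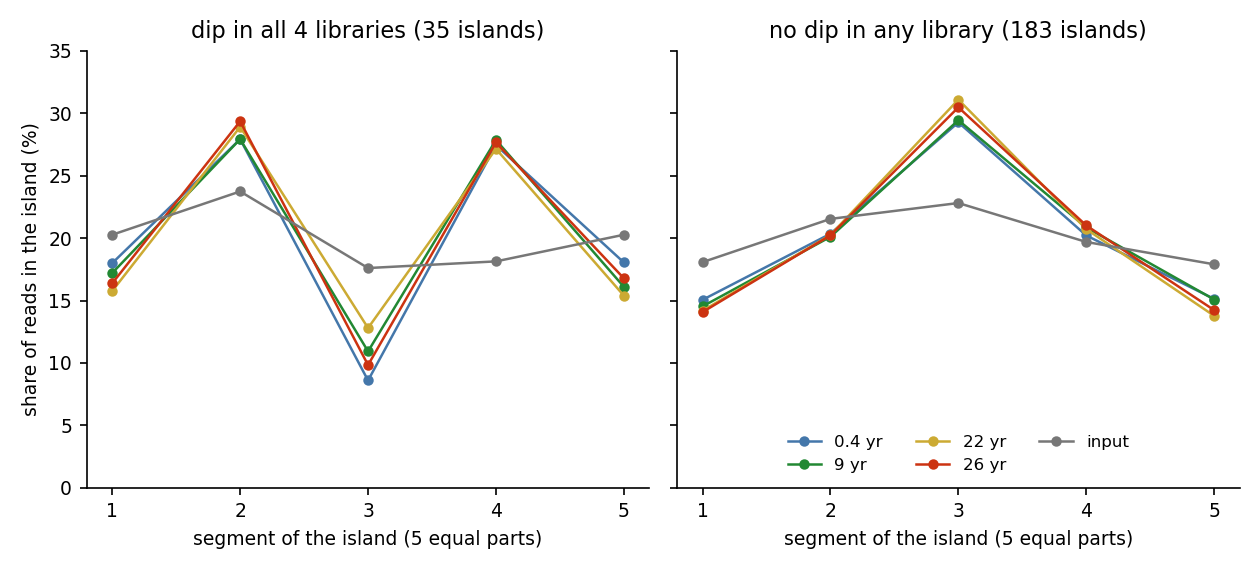
Share of reads in each of 5 equal segments of the island, in percent, per library and in the input, for 35 islands with a dip in all 4 libraries and 183 with a dip in none. All 4 H3K4me2 lines share the same shape in each panel, which the choice of islands fixes for the middle segment.

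The distance to other islands was not used by the rule and is given as a description, with no test. Another island lay within 2 kb of 111 of the 309 (35.9%, against 42.9% of eligible islands), within 5 kb of 139 (45.0% against 60.0%) and within 20 kb of 203 (65.7% against 82.8%). The median distance to the nearest island was 8600 bp, against 3000 bp. Islands at 5 to 10-fold had almost the same spacing, with 44.9% within 5 kb and a median of 7800 bp. The most isolated, chr3:136386401-136388200, lay 358400 bp from any other island and held 20, 36, 46 and 49 reads.

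Neighbours were described by their own enrichment. The nearest island with an enrichment value stood at 5-fold or more in 33.4% of the 305 islands for which it had one, against 23.5% at 5 to 10-fold and 12.7% of eligible islands. For the 111 islands with a neighbour within 2 kb, the neighbour had a median enrichment of 3.39 and a median distance of 800 bp, and in 3 cases it was the more enriched of the pair. The stretch between held 1.61, 2.47, 2.40 and 2.83 reads per kb in order of age, while the islands themselves held 20.5, 32.7, 41.3 and 45.2. The input was at 1.91 reads per kb in the stretch between and 4.23 in the island. Islands are bounded where the signal falls, so a lower level between them follows from the calling. Over its own input the stretch stood at 1.37, 1.89, 1.70 and 1.88 in order of age. Beside islands at 5 to 10-fold it stood at 1.06 to 1.33.

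Runs of 10-fold islands were short. Within 5 kb of another of them lay 4 of the 309 (1.29%), as 2 pairs, where 0.633% of islands at 5 to 10-fold and 0.355% of eligible islands lay that near to one of the 309. The islands chr14:116820001-116821600 and chr14:116823001-116825000 lay 1400 bp apart with 57, 93, 139 and 122 reads in one and 52, 85, 81 and 120 in the other. The islands chr19:48531801-48533600 (45, 85, 122 and 121 reads) and chr19:48535201-48537800 (39, 57, 66 and 74 reads) lay 1600 bp apart. In both pairs the infant count was the lowest, and the first island had the higher enrichment, 12.4 against 10.6 and 11.9 against 10.5.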

How the data were processed

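The authors deposited 1 file of aligned reads of 35 bases per library and 1 island table. Islands were called with SICER, per the submitters' processing notes. The name of the table states 200 bp windows, gaps of 400 bp and an FDR of 0.001. Neither aligner nor genome build is given in the sources used here. Within a read file each position and strand occurred once. The table has no header. Its deposited columns were matched to the reads: a pooled count over the 4 libraries (within 2 reads of distinct positions counted here in 98.5% of islands), an input count (equal in 86.6%), a p-value and an adjusted p-value from the authors, and the authors' fold, a ratio that equals the enrichment used here. Depth in autosomal reads was 8402719, 9405440, 10155000 and 10810296 from the youngest to the oldest animal and 13738020 for input. Reads carry no molecular identifiers.

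Read starts were moved 75 bp towards the 3' end and counted per island. The trend was fitted on all autosomal islands with edgeR 4.0.16 (R 4.3.3), age in years as a number, TMM scaling, a minimum of 10 in edgeR's filter on low counts, and Benjamini-Hochberg adjustment at 0.05. The 33.8 prior degrees of freedom exceed the 2 residual ones, so most of each variance comes from other islands. Input subtraction left at least 1 read. Enrichment bounds are exact conditional binomial, and shares carry Clopper-Pearson intervals, all at 95%. Alternatives covered the scaling, DESeq2 1.42.0 and limma 3.58.1 as tests, filters, read shifts, thresholds and leaving out libraries. Counting, statistics and plots used scipy 1.17.1, matplotlib 3.10.9, pandas 2.3.3 and numpy 2.4.6 under Python 3.11.15.

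Islands and lists were chosen with earlier results of these data known. Islands were named by a fixed rule: the 5 with the highest enrichment and the 5 with most reads per kb, 3 on each side of the threshold, the 5 with the smallest trend p per direction where fewer than 5 pass, up to 3 per direction and pair of ages, the widest, the narrowest, the most isolated and the longest run. Gene annotation and sequence were not used here, because the reference at hand is of another build.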

Additional observations from a re-analysis of the deposited data

Results flagged for a closer look

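Signal also appeared in islands that the criteria leave out. On the X chromosome, 29 of 644 eligible islands (4.50%) met the width, input and enrichment criteria, against 0.566% of eligible autosomal islands. They held 922, 1498, 2007 and 2193 reads by age, with 203 input reads, a summed enrichment of 7.43, 10.8, 13.4 and 13.7. Their median input density was 2.50 reads per kb, against 4.58 in all eligible X islands. The labels give no sex.

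A further 398 autosomal islands under 10000 bp reached 10-fold or had no input read, with under 5 input reads, 37 of them with 0. They were small, with a median width of 800 bp and 65 pooled reads. Over the input of the 10 kb on each side their median enrichment was 7.32, and 108 of the 398 stood at 10 or more.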

How the results depend on the processing

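The number of islands followed the criteria: 998 at a threshold of 8, 90 at 12, 118 with at least 10 input reads and 1350 when scaled to background, and 238 to 556 when 1 library was left out. Recounting from the read files gave 348, of which 294 were among the 309. Rising calls were 0 with TMM scaling, 29 with background scaling, 31 with background scaling and counts corrected for 1 read per position, 0 to 1 without 1 library under TMM scaling and 0 to 176 without 1 library under background scaling. Background scaling moved the median of all islands by over 0.1, to 0.53 between 0.4 and 26 years; with total autosomal reads it was 0.33 and 0 of the 309 passed. The median log2 ratios of 9, 22 and 26 years over 0.4 years were 0.60, 0.91 and 0.97 with background scaling, and 0.66, 0.97 and 1.05 with input subtracted. With total autosomal reads those of 22 and 26 years were 0.68 and 0.76. The summed enrichment in order of age was 9.99, 15.2, 19.0 and 19.6 with background scaling and 7.29, 9.91, 11.8 and 12.4 over flanking input, and in islands chosen on the other 3 libraries 7.21 at 0.4 years and 10.3 at 9 years. The centre ratio was 1.40 in the infant library by itself. Another island lay within 2 kb of 35.9% and within 20 kb of 65.7%, and another 10-fold island within 20 kb of 3.88%. The median ratios of the 309 kept their sign under each alternative, but single islands did not: 23 had a falling slope with TMM scaling and 0 with background or total scaling. The cause of these shifts was not tested. Background scaling without 1 library, background scaling with corrected counts, and pairs on islands chosen on the other 2 libraries were added after seeing the data. At 50 reads in a pair the depth limits a single ratio to an interval over 1 log2 unit wide. No paired analysis was possible because each age has 1 library.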
